A study of Mus musculus with 74 samples.

Results

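PPARα occupancy was compared between livers that lacked NCOR and their controls, over all 86168 PPARα sites of the count table made for this comparison. Of the 74 samples of the series, 6 entered: chromatin immunoprecipitation with sequencing (ChIP-seq) of PPARα in 3 Ncor WT and 3 Ncor LKO livers. The mice were C57BL/6, 8 to 12 weeks old and kept on chow diet, with no treatment, and the groups differed in the liver knockout of Ncor. What drives Cre in the Ncor line is not given in the sources used here, whereas the study's Gps2 line used Alb-Cre, which is active in hepatocytes. Fresh liver was fixed with disuccinimidyl glutarate and formaldehyde, and several immunoprecipitations went into each library, so a library averages over them. The study asked how subunits of the corepressor complex bear on PPARα in the liver, and this comparison takes the subunit NCOR. Sites were gained or lost when the LKO libraries were higher or lower at an adjusted p under 0.05.

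PPARα is a nuclear receptor that binds DNA as a heterodimer with RXR, usually at repeats of AGGTCA separated by 1 base (DR1 elements), and is activated by fatty acids. In the liver it drives genes of fatty acid oxidation, ketone body production and omega-hydroxylation. NCOR is a large corepressor that docks on nuclear receptors and brings the histone deacetylase HDAC3 together with GPS2 and TBL1 proteins. H3K27ac, acetylation of histone H3 at lysine 27, marks active enhancers and promoters and is removed by deacetylases.

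The sequences below belong to the sites described further on, read from the mm9 genome with the matched letters in capitals. The 16 sites were picked by the size of their change, except the lost site of Ankrd55, which was added by its low unadjusted p. Of them, 5 of the 8 lost sites, Ankrd55 included, and 1 of the 8 gained sites held TTCNNNGAA. This is the palindrome that STAT transcription factors bind, in which N is any base. Within 201 bp around the centre, 6.79% of all sites held this motif, whereas the 16 sites were searched over their full width. The motif was chosen after the values were seen. The first 5 are the lost sites, and the sixth is the gained site.
Fgl1 chr8:42291401-42291461 (+): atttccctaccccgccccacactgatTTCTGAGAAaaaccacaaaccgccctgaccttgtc
Aoc3 chr11:101204228-101204288 (+): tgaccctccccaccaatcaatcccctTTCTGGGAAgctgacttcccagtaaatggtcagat
Sec61g chr11:16489298-16489358 (+): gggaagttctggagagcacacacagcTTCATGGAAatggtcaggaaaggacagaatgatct
Pyurf chr6:57597451-57597511 (+): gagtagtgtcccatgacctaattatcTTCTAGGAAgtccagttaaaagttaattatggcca
Ankrd55 chr13:113107230-113107290 (+): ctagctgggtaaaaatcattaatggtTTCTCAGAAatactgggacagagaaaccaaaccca
Dnaja3 chr16:4686966-4687026 (+): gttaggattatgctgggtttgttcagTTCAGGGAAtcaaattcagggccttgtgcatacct
A DR1 element with at most 2 mismatches was in 11.2% of all sites, searched within 201 bp around the site centre. It was found in 2 of the 24 sites searched over their full width, the 16 sites above and 8 sites of Pdk4 and Cyp4a14. Both are shown with the element in capitals.
Pdk4 chr6:5459803-5459863 (+): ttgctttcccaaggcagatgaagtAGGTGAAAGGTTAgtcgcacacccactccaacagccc
Pyurf chr6:57597433-57597493 (-): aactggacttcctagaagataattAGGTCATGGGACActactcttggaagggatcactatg

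WT 3 stood apart from the other libraries. Uniquely mapped tags totalled 16209600, 18728900 and 21030600 in WT 1 to 3 and 17533500, 18744500 and 16448100 in LKO 1 to 3. The listed sites held 19.3% and 18.6% of the tags of WT 1 and WT 2 but 8.96% of those of WT 3, against 14.7%, 15.1% and 21.1% in the LKO libraries. The share averaged 15.6% ± 5.78 over the WT libraries and 17.0% ± 3.55 over the LKO libraries (SD, n = 3 each), a difference within the spread between libraries (two-sided exact permutation p = 0.8, where 3 against 3 cannot go below 0.1). Without WT 3 the WT mean was 19.0%, with exact permutation p = 0.4. Calls over all sites and genes are counted with both scalings. The changes at sites named by size are from total tags unless TMM is named, and the gene lists are read with TMM. Scaling to total tags lets a library with few tags in sites look low at every site, whereas TMM sets the bulk of the sites level across libraries. Tags at sites on chromosome Y were present in all 6 libraries, from 163 to 423.

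**Figure D1:**
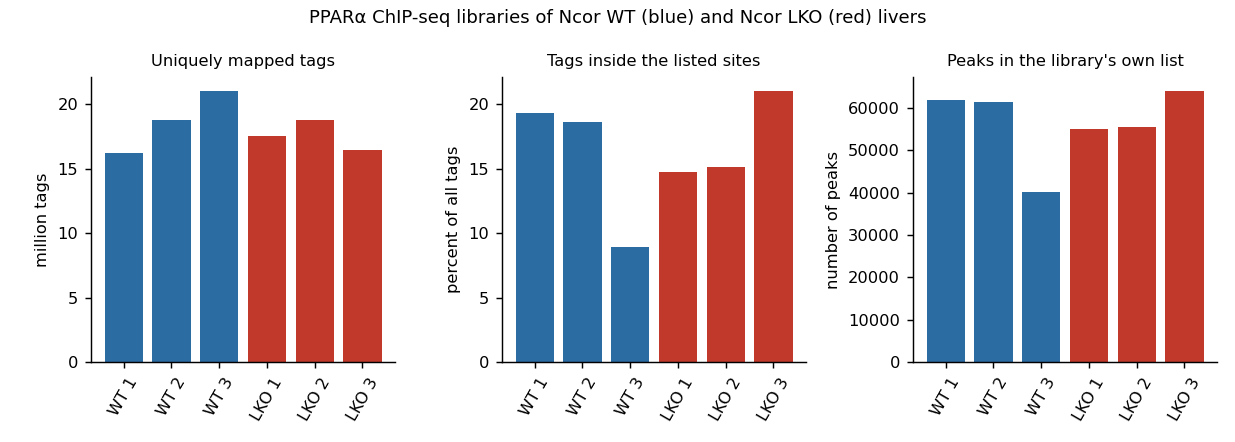
PPARα ChIP-seq libraries of Ncor WT (blue) and Ncor LKO (red) livers, 1 bar for each library, with the measure of each panel on its vertical axis. WT 3 is the lowest in the share of tags in sites, at 8.96%, and in its peak list, at 40057 peaks, although its total is the highest at 21030600 tags.

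Few of the PPARα sites were called as gained or lost in the Ncor LKO livers. The median log2 change over all sites was 0.10 with total tags, and from -0.17 without WT 3 to 0.29 without WT 1. With TMM it was -0.01, which the scaling sets near 0 by construction. For PPARα in Ncor LKO livers the paper reports a higher average recruitment and more enhanced binding. With total tags 130 sites were gained (0.151% of those tested) and 39 were lost (0.0453%). With TMM 1096 sites were gained (1.27%) and 400 were lost (0.464%). Of the sites called with total tags, 127 of the 130 gained and 30 of the 39 lost were also called with TMM. The counts rested on single libraries: with total tags, leaving out LKO 3 left 3 gained and 2 lost sites, leaving out WT 2 left 5 and 4, and leaving out WT 3 gave 296 and 539. Of the calls with all libraries, 127 of 130 and 39 of 39 were kept without WT 3. With TMM, leaving out WT 2 gave 125 gained and 64 lost sites and leaving out WT 3 gave 526 and 231, so that 44.0% of the 1096 gained and 51.75% of the 400 lost sites were kept without WT 3. In both scalings gained sites outnumbered lost sites, but with total tags this order turned when WT 3 was left out. All 3 LKO libraries lay above all 3 WT libraries at 5162 sites (5.99%) and below them at 1728 sites (2.01%) when scaled to total tags.

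**Figure D2:**
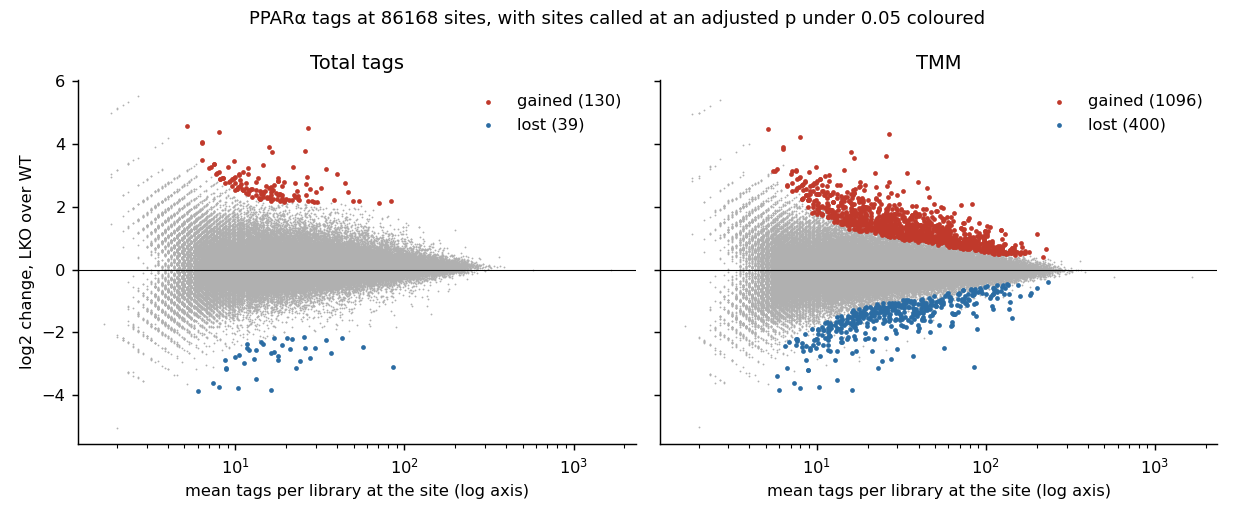
The log2 change of PPARα tags (LKO over WT, vertical axis) against the mean tags per library at the site (horizontal axis, log scale) for 86168 sites, scaled to total tags and with TMM, with called sites in colour. TMM calls 1096 gained and 400 lost sites, total tags 130 and 39.

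Gained sites were mostly distal. Sites gained with TMM had a median of 10.4 tags per 10000000 in WT and 28.2 in LKO, lost sites had 22.7 and 9.17, and all sites had 10.9 and 11.9. The first 2 pairs describe the choice of the sites. Of the gained sites 3.01% lay within 1000 bp of a transcription start site (TSS), of the lost sites 8.25%, and of all sites 21.9%. Counted the other way, 33 of the 18908 sites near a TSS were gained and 33 were lost, against 1063 and 367 of the 67260 farther sites.

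The largest gains called under both scalings lay near genes of lipid handling and of other functions. The 8 sites were taken by size, 1 for each nearest gene, where the groups did not overlap and the libraries averaged 20 tags or more. The nearest gene is a label by distance to the TSS and does not say which gene a site acts on. At 10503 bp upstream of Pnpla5, a patatin-like lipase gene, the site chr15:83964014-83964203 had 4, 1 and 2 tags in WT and 44, 22 and 88 in LKO. All LKO libraries were above all WT libraries, which the rule required. The log2 change was 4.49 ± 0.661 (SE) with total tags (edgeR adjusted p = 9.05e-07) and 4.30 with TMM (adjusted p = 2.08e-04), and this was 1 of 6 sites gained with TMM among the 7 labelled Pnpla5.

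The second site lay in an omega-hydroxylase cluster, 16721 bp downstream of the TSS of Cyp4a10, which hydroxylates fatty acids at their far end. This site, chr4:115207521-115207705, had 2, 7 and 2 tags in WT and 25, 56 and 63 in LKO. Its log2 change was 3.75 with total tags (adjusted p = 4.67e-05) and 3.61 with TMM (adjusted p = 1.22e-04), between 3.25 and 4.58 over all alternatives. The Cyp4a genes are close copies of each other, so tags that map to more than 1 copy are uncertain here. The site with the most tags at this gene, 4205 bp upstream, did not differ: it had 212, 234 and 130 tags in WT and 190, 192 and 210 in LKO, with log2 changes of 0.09 and -0.01.

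Ly6c1, a surface antigen of monocytes and endothelial cells, had a gained site 520 bp downstream of its TSS with 11, 7 and 3 tags in WT and 63, 32 and 90 in LKO (log2 change 3.19, adjusted p = 6.21e-04). Summed over its sites it was the gene with the lowest p for a gain with total tags, though not with TMM, with 14, 10 and 4 against 75, 42 and 118 tags. In an intron of Dnaja3, a mitochondrial co-chaperone, the counts were 3, 16 and 9 against 28, 53 and 130 (log2 change 3.03, adjusted p = 0.00108). Far upstream of Sall1, a zinc-finger transcription factor gene, they were 7, 8 and 3 against 23, 38 and 56 (log2 change 2.75, adjusted p = 0.00443). That the groups did not overlap at these sites was required by the rule.

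The other 3 gains were smaller. A site labelled 4930549C15Rik, inside Rnf144a, a ubiquitin ligase gene, had 14, 5 and 2 tags against 70, 22 and 44 (log2 change 2.72, adjusted p = 0.00511). A site at Fam53a had 15, 12 and 1 against 51, 34 and 80 (log2 change 2.60, adjusted p = 0.00963). A site inside Asap2, which encodes an Arf GTPase-activating protein, had 8, 8 and 9 against 73, 23 and 44 (log2 change 2.56, adjusted p = 0.00966). With TMM the 8 gains ran from 2.43 to 4.30. Calls at the sites of 4930549C15Rik and Asap2 were kept in 7 of 8 TMM settings, and those of the other 6 gained sites in all 8. The gain with the lowest p under TMM lay inside Mad1l1, a spindle checkpoint gene, with 37, 43 and 13 tags in WT and 113, 133 and 159 in LKO (log2 change 2.17 and 2.08, adjusted p = 0.0205 and 4.65e-06).

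The largest losses were at fewer sites, of which 7 met the same rule. An intronic site of Fgl1, a fibrinogen-like protein secreted by hepatocytes, fell from 64, 45 and 15 tags in WT to 2, 9 and 3 in LKO (log2 change -3.12, adjusted p = 8.9e-04). The site near Aoc3, an amine oxidase gene, had 81, 28 and 19 tags against 3, 12 and 2 (log2 change -2.91, adjusted p = 0.00235). A site in Atg4a, an autophagy protease gene on the X chromosome, had 70, 56 and 19 against 4, 7 and 9 (log2 change -2.81, adjusted p = 0.00371). WT 3, the lowest WT library in tags in sites, was above every LKO library at these sites, which the rule required.

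The steadiest loss lay 62802 bp upstream of Mroh2b, at chr15:4785845-4786026. It had 75, 78 and 39 tags in WT and 8, 10 and 11 in LKO, a log2 change of -2.67 with total tags (adjusted p = 0.007) and -2.75 with TMM (adjusted p = 1.51e-05). The site upstream of Sec61g, a subunit of the protein translocation channel, had 132, 127 and 29 tags against 13, 17 and 21 (log2 change -2.47, adjusted p = 0.0109). In these sites WT 3 was closer to the LKO libraries than the other WT libraries were, within the separation that the rule required.

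A site labelled Pyurf that lay inside Herc6 had 53, 38 and 16 tags against 4, 14 and 5 (log2 change -2.20, adjusted p = 0.0373). The site at Serpina4-ps1, a serpin pseudogene, had 66, 33 and 26 against 2, 22 and 4 (log2 change -2.15, adjusted p = 0.0428) and kept its TMM call in 3 of 8 settings. An intronic site of Ankrd55 filled the eighth place without passing the rule, with 170, 182 and 66 tags against 24, 41 and 49. Its log2 change was -1.83 with total tags (adjusted p = 0.081) and -1.89 with TMM (adjusted p = 3.37e-05), so only TMM called it. With TMM the other 7 losses ran from -3.12 to -2.19.

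**Figure D3:**
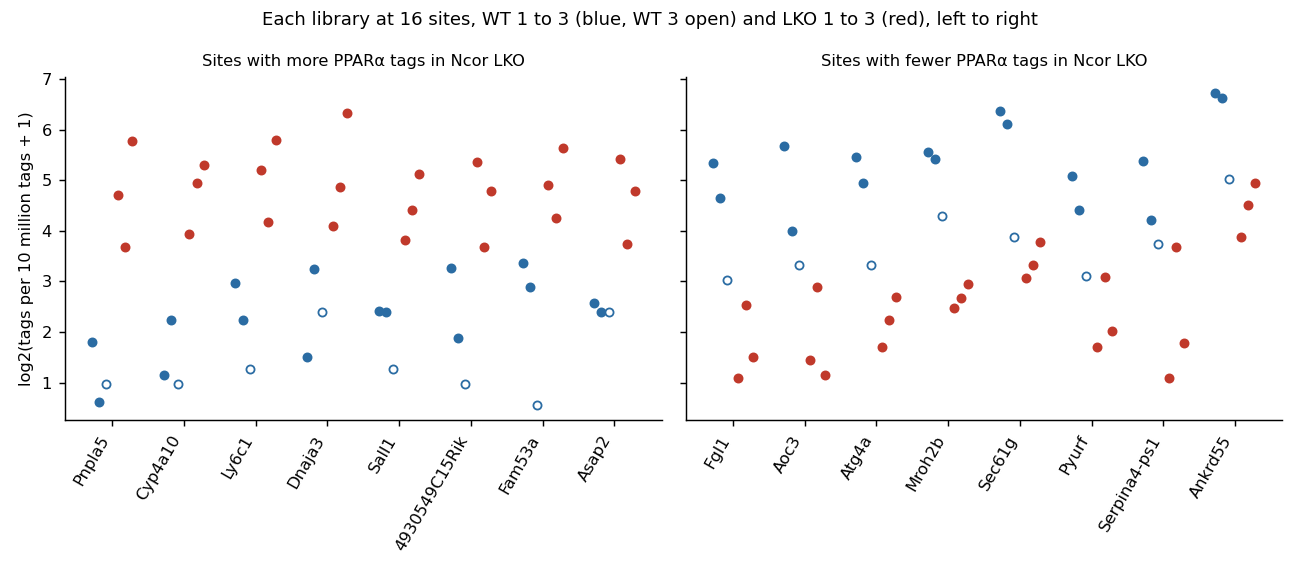
The log2(tags per 10000000 tags + 1) of each library (vertical axis) at the 8 gained and 8 lost sites named by size, for WT 1 to 3 (blue, WT 3 open) and LKO 1 to 3 (red), by nearest gene. The lost site of Ankrd55 was added by its low unadjusted p. At Pnpla5 the LKO counts of 22 to 88 tags lie above the WT counts of 1 to 4, and at Mroh2b the LKO counts of 8 to 11 lie below the WT counts of 39 to 78.

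Several called sites lay side by side. At Tab2, which encodes an adaptor of the TAK1 kinase, 9 of 19 labelled sites were gained with TMM, from 277221 bp upstream of the TSS. At Mup19, of the major urinary protein genes, 8 of 12 were gained, and at Asap2 6 of 22. Among losses, 5 of 14 sites at Serpina1e and 5 of 7 at Serpina4-ps1 were called, within a stretch of chromosome 12 from 105 to 110 Mb where 14 of 235 sites were lost. Neighbouring sites share their chromatin and are not independent, and both the Mup and the Serpina1 genes are families of near-identical copies in which unique mapping is uncertain. These loci were picked after their counts were seen.

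Not all losses with total tags were of this kind. Of the 39 lost sites, 10 lay over exons of Ppara and of Ncor1, with 5 sites each. Summed per 10000000 tags, the Ppara exon sites held 13.0, 474 and 62.3 tags in WT 1 to 3 and 20.5, 54.9 and 12.2 in LKO, and the Ncor1 exon sites held 7.40, 192 and 19.0 against 7.41, 19.7 and 7.30. The tags sat mainly in WT 2, the groups overlapped at all 10 sites, and 1 of the 10 was called with TMM. Without them 29 sites were lost. What placed tags over these exons was not tested.

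By gene, tags were summed over the sites within 10000 bp of the TSS, for 14455 genes. With total tags 10 genes were gained (0.0692%) and 3 were lost (0.0208%), and with TMM 208 were gained (1.44%) and 75 were lost (0.519%), including those 10 and 3. B930092H01Rik was the only gene to pass the rule for naming genes, with 51, 31 and 23 tags in WT and 105, 76 and 231 in LKO (log2 change 2.04 ± 0.484, SE; adjusted p = 0.0339). The other 9 gained genes were Ly6c1, Jmjd6, Pak6, Maml2, Olfr5, Pla2g4f, Mpo, Mir33 and Mir6538, named after their values were seen. Among them Mpo, the myeloperoxidase gene of granulocytes, had 9, 1 and 1 tags against 24, 15 and 25. Jmjd6, a nuclear oxygenase gene, had 23, 12 and 7 against 52, 36 and 90. The 3 lost genes were Col27a1, a fibrillar collagen gene, with 81, 86 and 28 tags against 15, 12 and 22, together with Gpx8 and Prok1, also named after their values were seen. At Col27a1 the libraries overlapped between groups once scaled to total tags, because WT 3 had 13.3 tags per 10000000 and LKO 3 had 13.4.

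The classical PPARα targets and regulators followed here were not called at their strongest sites. At Cpt1a, the enzyme of fatty acid import into mitochondria, the intronic site had 233, 246 and 150 tags in WT and 185, 189 and 239 in LKO, with log2 changes of 0.02 ± 0.401 (SE) with total tags and -0.10 ± 0.0945 with TMM. At Fgf21, a fasting hormone secreted by the liver, the site had 76, 139 and 74 tags against 92, 87 and 119. In both sites the groups overlapped. The strongest sites of Cpt1a, Angptl4, Plin2, Ppara, Fgf21, Rxra, Nr1d1 and Ncor1 had log2 changes from -0.47 to 0.13 with total tags and from -0.56 to -0.010 with TMM, and none was called under either scaling. The lowest of both ranges belonged to an intronic site of Ncor1, labelled 2616 bp upstream of a TSS of that gene, with 79, 126 and 48 tags against 48, 65 and 62. None of the 10 sites labelled Ncor1 was called under either scaling.

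Pdk4, a kinase that shuts off glucose oxidation, and Cyp4a14, an omega-hydroxylase, were followed at their strongest sites within 20000 bp. The promoter site of Pdk4 had 164, 194 and 97 tags in WT and 157, 174 and 184 in LKO (log2 change 0.23 and 0.14). Sites 13621 bp and 2693 bp upstream had log2 changes of 0.38 and 0.41 with total tags and 0.32 and 0.30 with TMM. These 3 sites were not called under either scaling. The paper reports PPARα recruitment in Ncor LKO livers as slightly higher at genes that NCOR represses, Pdk4 and Cyp4a14 among them.

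A further Pdk4 site, chr6:5435171-5435379 in its 3′ UTR exon and 11003 bp downstream of the TSS, had 82, 67 and 27 tags in WT and 128, 156 and 173 in LKO. The groups did not overlap, and the log2 change was 1.40 with total tags (adjusted p = 0.325) and 1.34 with TMM (adjusted p = 2.08e-04), called in all 8 TMM settings. A weaker site 13237 bp upstream, noticed after its values were seen, had 36, 43 and 16 tags against 54, 78 and 74 (TMM log2 change 1.08, adjusted p = 0.0129).

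At Cyp4a14 the promoter site had 23, 26 and 5 tags in WT and 30, 37 and 26 in LKO (log2 change 0.81 and 0.78, not called). The site 1564 bp upstream, with the most tags of this gene, had 105, 151 and 90 against 100, 146 and 137 (log2 change 0.21 and 0.09). A weak site 11216 bp downstream had 0, 4 and 2 tags against 8, 17 and 15 and was called with TMM only (log2 change 2.61, adjusted p = 0.0406), in 2 of 8 settings.

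Gene groups were read against the sites of all genes within 20000 bp, of which 1.01% were gained and 0.422% lost with TMM. Among the peroxisomal fatty acid oxidation genes, 5 of 121 sites were gained (4.13%) and 2 were lost (1.65%). The gained sites lay at Ehhadh, the bifunctional enzyme (TMM log2 change 0.63, adjusted p = 0.0114, and at its promoter 0.46, adjusted p = 0.0387), at the thiolase genes Acaa1a (0.60, adjusted p = 0.0341) and Acaa1b (1.08, adjusted p = 0.0419), and at Pecr (0.85, adjusted p = 0.0413). The lost sites lay at Scp2 and at Nudt7, a peroxisomal hydrolase gene. Of the 106 sites at mitochondrial oxidation and ketogenesis genes 1 was gained, at Slc25a42, the coenzyme A carrier (0.50, adjusted p = 0.0403), and none was lost.

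The Cyp4 omega-hydroxylases had calls in both directions, with 4 gained and 4 lost of 59 sites. Besides the sites of Cyp4a10 and Cyp4a14 above, gains lay at a second downstream Cyp4a10 site and at Cyp4a32. Losses lay 998 bp inside Cyp4a10 (117, 138 and 52 tags against 52, 48 and 62, TMM log2 change -0.94, adjusted p = 0.00722), at Cyp4a32, at Cyp4v3, and at the promoter of Cyp4a12b (30, 31 and 18 against 7, 8 and 10, TMM log2 change -1.70, adjusted p = 0.00813). Among uptake and activation genes 2 of 83 sites were gained, in Fabp4, a fatty acid binding protein (11, 11 and 2 tags against 36, 30 and 30, TMM log2 change 1.97, adjusted p = 0.00575), and in Acsl1. Thioesterases gained 2 of 44 sites, at Acot5 and Acot11, and lipid droplet and lipase genes 1 of 131, at Mgll.

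Lipogenic and cholesterol genes held 8 gained sites. At LXR and SREBP1 lipogenesis genes 4 of 153 sites were gained, led by a site 17921 bp downstream of Scd1, the stearoyl-CoA desaturase (36, 37 and 39 tags against 110, 85 and 134, TMM log2 change 1.46, adjusted p = 0.00124, called in all 8 TMM settings). At cholesterol synthesis genes 4 of 118 were gained, with 2 each at Fdft1, the squalene synthase, and at Insig2, which holds SREBP in the endoplasmic reticulum. No site of these lists was lost, where the share over all genes corresponds to less than 1 site in each. In a mixed list of PPAR regulators and signals 3 of 186 sites were gained, at Pdk4 and Ucp2, and 1 was lost, at Lpin1. Circadian genes gained 2 of 135, both at Nfil3. Thyroid hormone receptor genes and targets (60 sites) and corepressor subunits (35 sites) had no called site.

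Genes with sex-biased expression in liver held calls in both directions. Of 112 sites at female-biased genes 6 were gained (5.36%) and none was lost, whereas of 158 sites at male-biased genes 2 were gained (1.27%) and 7 were lost (4.43%). Of the female-biased gains 3 lay at Cyp17a1, a steroid hydroxylase, and 1 of these, 6917 bp upstream, was also called with total tags (3, 7 and 7 tags against 23, 24 and 32, log2 change 2.30, adjusted p = 0.0326). The others lay at Sult3a1, Cyp3a16 and Trim24. The male-biased losses were at Gstp2 with 2 sites, Gstp1, C8b, Nudt7, Cyp7b1 and Cyp4a12b, and the gains were at Moxd1 and Gstp1. At Cyp7b1, an oxysterol hydroxylase, the lost site had 81, 97 and 32 tags against 16, 39 and 40 (TMM log2 change -1.17, adjusted p = 0.0194). The same site was the 1 loss among 102 bile acid sites, and Gstp1 and Gstp2 are near-identical copies. The Mup genes, many of which are higher in male liver, held gains: of 86 sites at 19 Mup genes 10 were gained and none was lost, all 10 at genes outside the male-biased list, whose own 4 Mup genes had no call among 24 sites. The difference between the lists was not tested.

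Of 107 sites at glucose genes 1 was lost, 2517 bp upstream of Pklr, the liver pyruvate kinase, with 107, 69 and 37 tags against 29, 16 and 24 (TMM log2 change -1.65, adjusted p = 0.00391). Acute phase genes lost 2 of 106 sites, 1 upstream of Fgg, the fibrinogen gamma chain, that total tags also called (40, 24 and 7 tags against 5, 6 and 3, log2 change -2.31, adjusted p = 0.0373), and 1 at the promoter of Hamp, the iron hormone hepcidin. With total tags, the 3 called sites of all lists were those of Cyp4a10, Cyp17a1 and Fgg.

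The cell types were checked by sites at marker genes. Hepatocyte markers had a site at 14 of 15 genes, with summed tags per 10000000 of 2045 to 4440 in WT and 3192 to 4525 in LKO. Macrophage markers had a site at 4 of 14 genes, with 34.2 to 56.8 in WT and 34.8 to 53.5 in LKO, and Adgre1, Clec4f and Cd68 had none. Endothelial, stellate and bile duct markers had a site at 11 of 20, with 223 to 475 in WT and 334 to 468 in LKO. The 6 and 33 sites of these other cells held no call under either scaling. Over the sites of all genes 1.01% were gained and 0.422% lost with TMM, so the absence of calls at so few sites says little. Ly6c1 and Mpo, named above for gains, were not among the markers.

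Alb, the albumin gene, was the exception among hepatocyte markers. Of its 11 sites 2 were gained with TMM, and the other 9 had TMM log2 changes from -0.36 to 0.17. The site 10726 bp upstream had 66.6, 92.4 and 40.9 tags per 10000000 in WT and 136, 149 and 190 in LKO (TMM log2 change 1.13, adjusted p = 3.37e-05, and 1.25 with adjusted p = 0.308 for total tags). The promoter site had 19.1, 20.3 and 10.5 in WT and 51.9, 53.9 and 46.8 in LKO (TMM log2 change 1.53, adjusted p = 0.00102, and 1.62 with adjusted p = 0.27 for total tags). The peaks over these 2 sites were also higher for GPS2 in the same line and for PPARα in the Gps2 line. The H3K27ac peaks over them were not called (log2 change -0.41, adjusted p = 0.16, and -0.35, adjusted p = 0.121). These H3K27ac peaks, chr5:90833786-90882525 and chr5:90883436-90898971, are far wider than the sites and also cover uncalled Alb sites. Their values therefore do not tell how H3K27ac changed at the 2 gained sites themselves. An upstream enhancer and the promoter of albumin are the control sequences used in Alb-Cre transgenes. Tags from a transgene copy and from the gene itself cannot be told apart in these counts.

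H3K27ac, measured in separate libraries of the same line with 3 WT and 3 LKO, moved with PPARα at the called sites. Scaled to total tags, 1594 of all 68817 H3K27ac peaks rose (2.32%) and 551 fell (0.801%). Of the 872 PPARα sites gained with TMM that lay in an H3K27ac peak, 852 had a higher value in LKO, with a median log2 change of 0.92, and 414 were in a peak that rose against 2 in a peak that fell. Of 352 lost sites 300 were lower, with a median of -0.54, and 128 were in a peak that fell against 3 in a peak that rose. Over all 68380 sites in a peak the median was 0.00, with 4.51% in a peak that rose and 1.42% in a peak that fell. For sites called with total tags the medians were 1.47 and -1.24. Relative to the median over all sites, the gained sites stood at -2.18 ± 0.14 in WT and -1.14 ± 0.085 in LKO (log2, SD, n = 3 each, two-sided exact permutation p = 0.1, the smallest that 3 against 3 allows), and the lost sites at 0.057 ± 0.00091 and -0.46 ± 0.19 (exact permutation p = 0.1). Many peaks hold several sites, so sites in 1 peak share a value.

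At Cyp4a10 the H3K27ac peak over the gained site had 18.8, 26.4 and 19.9 tags per 10000000 in WT and 72.1, 62.7 and 73.5 in LKO (log2 change 1.68, adjusted p = 0.00277). At the gained site of Asap2 the peak had 66.0, 60.2 and 52.6 against 452, 162 and 145 (log2 change 2.09, adjusted p = 0.0178). At Atg4a it fell from 126, 84.4 and 64.0 to 7.46, 6.59 and 9.98 (log2 change -3.50, adjusted p = 0.00152). Of the 8 named gains, all but 4930549C15Rik (log2 change 1.05, adjusted p = 0.195) lay in a peak that rose. Of the 8 named losses, Atg4a, Mroh2b, Sec61g, Serpina4-ps1 and Ankrd55 lay in a peak that fell, Fgl1 had a log2 change of -0.24 (adjusted p = 0.808), and Aoc3 and Pyurf lay in no peak. At Pdk4 the peak over the 3′ UTR exon site rose by 1.68 (adjusted p = 0.00277) and that over the promoter by 0.65 (adjusted p = 0.0236).

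**Figure D4:**
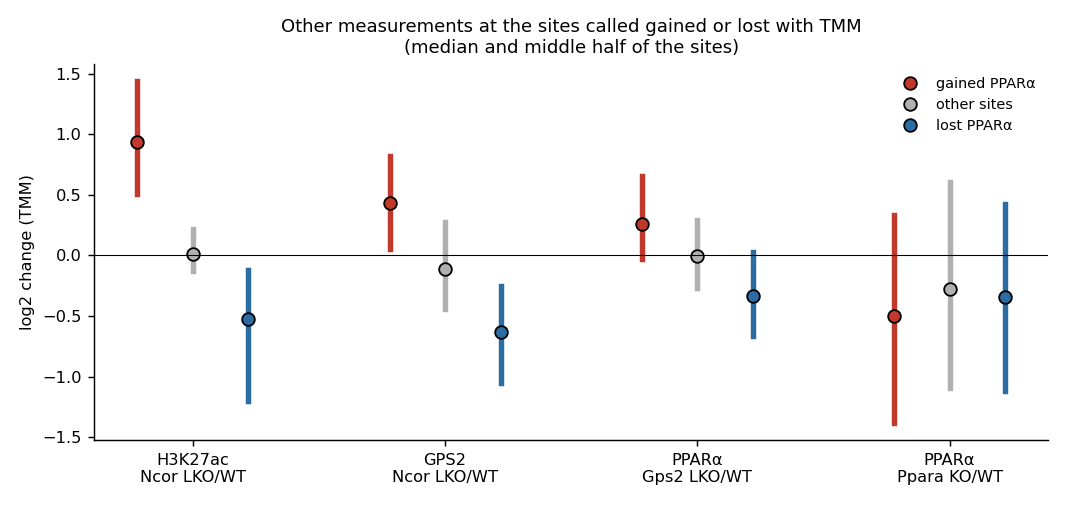
Median log2 change with TMM (vertical axis) of other ChIP-seq measurements at PPARα sites gained, lost or neither, with bars for the interquartile range over sites. H3K27ac separates most, with medians of 0.93 at gained and -0.52 at lost sites.

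GPS2 was measured in the same line, and PPARα in the Gps2 and Ppara lines. In the GPS2 libraries of the Ncor line 8.23%, 7.82% and 3.07% of tags were in peaks in WT and 2.85%, 3.15% and 2.45% in LKO. Total tags lowered nearly all peaks: 44278 of the 46451 PPARα sites in a GPS2 peak were lower in LKO (median log2 change -1.20). The paper reports lower average GPS2 binding at sites shared with NCOR in Ncor LKO livers, and more reduced than increased GPS2 peaks. TMM sets the bulk of the peaks level, so it cannot show a fall shared by most peaks. With TMM 999 of 56278 GPS2 peaks rose (1.78%) and 258 fell (0.458%), and the median log2 change was 0.43 over the 670 gained PPARα sites in a GPS2 peak, -0.63 over the 287 lost sites and -0.11 over all. In the Gps2 line, PPARα rose with TMM at 553 of 102519 peaks in Gps2 LKO (0.539%) and fell at 445 (0.434%). The median there was 0.26 over 971 sites gained in Ncor LKO, with 38 in a peak that rose and 3 in a peak that fell, and -0.33 over 362 lost sites, with 36 in a peak that fell and none that rose. Total tags turned the sign at lost sites: 21.5% of all peaks rose and 0.147% fell, and the median was 0.28 over lost sites (58 in a peak that rose, 13 in a peak that fell), 0.86 over gained sites and 0.60 over all sites. The 3 Gps2 WT libraries differed by less than the sampling noise and were counted as 1 sample, which is assumed to vary like the LKO samples. In Ppara KO livers (2 against 2 WT) PPARα tags fell at 11112 of 40241 peaks (27.6%), with 33.2% of gained, 33.6% of lost and 28.9% of all sites that lay in a peak of that table. With TMM 3.15% of the peaks fell, and the shares were 3.20%, 4.07% and 3.36%. Of the 130 sites gained with total tags 16 lay in a peak of that table (12.3%), against 43.9% of all sites.

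**Figure D5:**
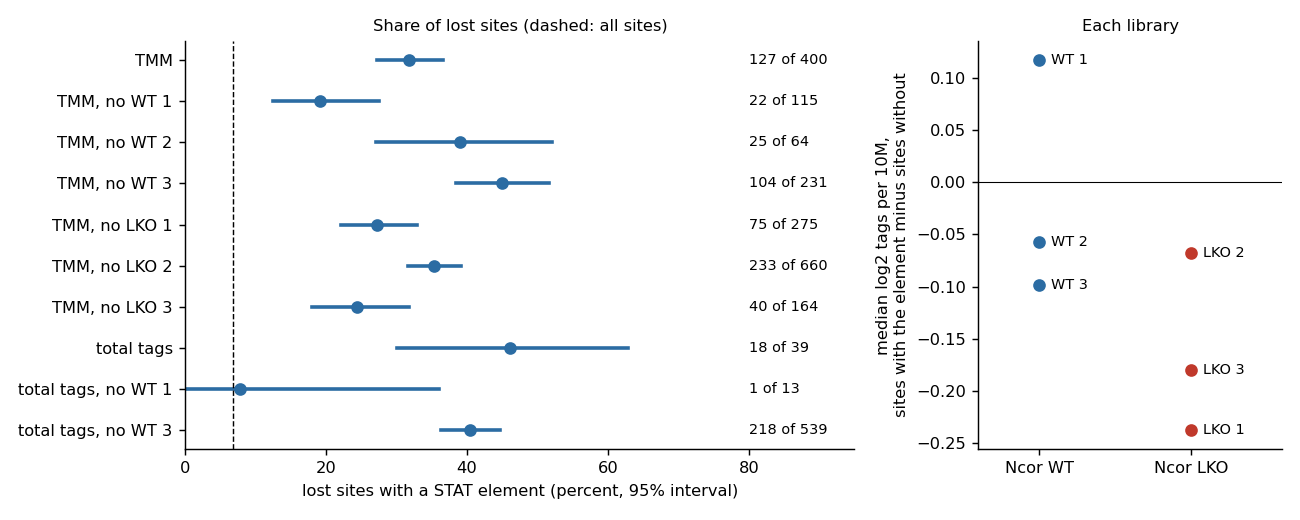
Left, the percent of lost sites with TTCNNNGAA under each setting (points, with 95% exact binomial intervals over sites) against all sites (dashed line at 6.79%). Right, the median log2 tags per 10000000 at sites with the motif minus that at sites without, 1 point for each library, from -0.10 to 0.12 in WT and from -0.24 to -0.07 in LKO.

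Lost sites held the STAT palindrome more often than other sites. STAT5 carries the growth hormone signal to sex-biased genes of the liver. Within 201 bp around the site centre and on both strands, which are the same for a palindrome, TTCNNNGAA was in 127 of the 400 sites lost with TMM (31.75%, 95% exact binomial interval 27.2 to 36.6, taking sites as independent), in 48 of 1096 gained sites (4.38%) and in 5843 of all 86059 sites with a window (6.79%). Among the 39 sites lost with total tags it was in 18 (46.2%). Changing the gap from 3 bases to 2 gave 4.75% of sites lost with TMM and 5.13% of all sites, and a gap of 4 gave 6.75% and 4.57%. Among the 39 sites lost with total tags, a gap of 2 was in 1 (2.56%) and a gap of 4 in 6 (15.4%). The share with TTCNNNGAA stayed above that of all sites in each TMM setting, from 19.1% of 115 lost sites without WT 1 to 45.0% of 231 without WT 3. With total tags and without WT 1 it was 1 of 13 sites. The median log2 tags of sites with the motif minus that of sites without it was 0.12, -0.06 and -0.10 in WT 1 to 3 and -0.24, -0.07 and -0.18 in LKO 1 to 3, so the groups overlapped and WT 1 was the highest.

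Of 4 growth hormone targets looked up after the motif was seen, 2 held a lost site. At Igf1, insulin-like growth factor 1, 1 of 29 sites was lost (TMM log2 change -0.95, adjusted p = 0.044), and at Cish, a feedback inhibitor of cytokine signalling, 1 of 10 was lost (TMM log2 change -1.67, adjusted p = 0.0152). Both held the motif. At Socs2 none of 3 sites was called, and at Bcl6, a transcriptional repressor gene, 1 of 16 was gained (TMM log2 change 1.76, adjusted p = 0.0392). These counts are small, and over all sites 0.464% were lost. At lost sites H3K27ac had a median log2 change of -0.45 where the motif was present and -0.62 where it was absent. DR1 elements with at most 1 mismatch were in 5.25% of lost, 2.10% of gained and 2.53% of all sites, and mean GC content was 49.5%, 49.1% and 51.4%. A match gives the letters of the window and does not show that a factor was bound.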

How the data were processed

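ChIP-seq tags were mapped by the authors to mm9 with Bowtie, peaks were called and annotated with HOMER, and raw tag counts per merged peak were deposited with the total tags of each library in the header. The submitters' processing notes also list HISAT2, featureCounts and SAMtools, without versions. In the tables read, 9 columns of per-sample values not matched to a sample of the labels were not used. The deposited counts were tested with edgeR 4.0.16 in R 4.3.3 (quasi-likelihood, Benjamini-Hochberg over all sites, adjusted p under 0.05), with library size set to total tags, and again with TMM. DESeq2 1.42.0, other filters and each library left out were alternatives. The labels do not tie libraries to animals, so p-values measure the spread between these libraries. The members and lists were chosen with earlier results of these data known.

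Named sites were the 8 largest rises and falls called under both scalings with separated groups, a mean of at least 20 tags and 1 site for each gene, strong sites within 20000 bp of Pdk4, Cyp4a14 and fixed targets, and, for lists, called sites. Among falls 7 passed, and Ankrd55, with separated groups, filled the eighth place by its low unadjusted p. Some fixed targets are not reported here. Genes by summed tags needed a mean of at least 50 tags. Motifs were searched in 201 bp windows of mm9, and over the full width of the sites whose sequence was read. Scripts were tested on simulated data. Precision is limited by counts: totals ran from 16209600 to 21030600 tags. Figures were drawn with matplotlib 3.10.9.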

Additional observations from a re-analysis of the deposited data

How the results depend on the processing

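The direction of the named gains and losses held under each alternative run, but the number of calls did not. The sites named by size were chosen with groups that did not overlap when scaled to total tags. With that scaling, leaving out a library could not turn their direction, so its being kept there is no test. The other named gains and losses were picked by their calls in the same libraries. With total tags 130 sites were gained and 39 lost. TMM gave 1096 and 400, the tags in sites as library size 1065 and 435, DESeq2 369 and 108, edgeR's filter on low counts 65 and 10, and sites in at least 2 peak lists 22 lost. Leaving out each library gave 3 to 296 gained and 2 to 539 lost sites with total tags, and 125 to 1458 and 64 to 660 with TMM. For genes, where total tags gave 10 and 3, TMM gave 208 and 75, DESeq2 109 and 29, the filter 0 lost, 50000 bp 6 gained, and 2000 bp 2 and 1 (90 and 43 with TMM). Leaving out each library gave 1 to 33 gained and 0 to 43 lost genes, and 70 to 253 and 32 to 110 with TMM. The cause of these shifts was not tested.

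The replicate numbers are shared between groups, but the labels do not say whether they pair the samples. Same-numbered libraries had correlations of 0.03, 0.01 and -0.10 in their deviations from the group means, and differently numbered ones from -0.16 to 0.18. With so few libraries these values cannot decide whether the numbers pair them. With the replicate number as a block, 0 sites and 0 genes were called with total tags in either direction (edgeR, 1722 sites at an unadjusted p under 0.05), and TMM with the block gave 638 gained and 231 lost sites. The sites of Angptl4, Plin2 and Nr1d1, not called, changed sign with the block, to 0.021, 0.046 and 0.087.

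Median log2 changes in other tables shifted with TMM. At sites called with total tags GPS2 went from -0.01 and -1.57 (gained, lost) to 0.98 and -0.37, PPARα in the Gps2 line from 1.12 and -0.42 to 0.52 and -1.02, and PPARα in Ppara KO from -0.44 and -1.32 to 0.97 and 0.13. At sites called with TMM they went from -0.69 and -1.72 to 0.43 and -0.63, from 0.86 and 0.28 to 0.26 and -0.33, and from -1.92 and -1.80 to -0.50 and -0.35. Leaving out each library of those tables gave -0.27 to 0.63 for GPS2 at gained sites (-1.05 to -0.11 at those of TMM), -1.08 to -0.17 for PPARα in the Gps2 line at lost sites, and -1.01 to -0.47 and -2.15 to -1.18 for Ppara KO at gained and lost sites (-2.06 to -1.87 and -2.02 to -1.27 at those of TMM). H3K27ac at sites lost with TMM ran from -0.63 to -0.50. The percent of lost sites with TTCNNNGAA, 31.75 with TMM, was 46.2 with total tags, 38.9 with DESeq2, 40 with the filter (4 of 10 sites) and 54.5 for sites in at least 2 lists. It was 19.1 to 45.0 with TMM over the libraries left out. With total tags it was 7.69 (1 of 13 sites) without WT 1, 40.4 without WT 3 and 50 (7 of 14 sites) without LKO 2, and fewer than 10 sites were lost without each of the others, for which it was not computed.

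Changes near 0 at uncalled sites changed sign. With TMM the log2 change was -0.10 at Cpt1a, -0.0056 at Cyp4a10 (4205 bp upstream), -0.010 at Ppara, -0.015 at Fgf21 and -0.039 at Rxra. DESeq2 gave -0.10, -0.0038, -0.0090, -0.018 and -0.036 in the same order, and tags in sites gave -0.11, -0.017, -0.022, -0.026 and -0.051. Leaving out each library gave -0.063 to 0.42 at the Pdk4 promoter, -0.0015 to 0.44 and -0.31 to 0.053 at Cyp4a14 (1564 and 7874 bp upstream), -0.23 to 0.21 at Cpt1a, -0.18 to 0.27 at Cyp4a10, -0.31 to 0.23 at Angptl4, -0.39 to 0.20 at Plin2, -0.16 to 0.31 at Ppara, -0.092 to 0.48 at Fgf21, -0.27 to 0.26 at Rxra and -0.35 to 0.23 at Nr1d1. Of the 20572 sites under 10 tags per library, 0.272% were gained and 0.126% lost with TMM, against 2.17% and 0.569% at 50 to 100 tags, whereas with total tags 26 and 6 were called under 10 tags and none above 100. The part of depth in this was not tested.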

Other observations

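Other elements were counted in the same windows, and their shares differed in both directions. Repeats of AGGTCA separated by 2 bases, with at most 1 mismatch on either strand, were in 2.10% of sites gained with TMM, in 0.5% of lost sites and in 0.754% of all sites, and repeats separated by 4 bases in 1.37%, 0.75% and 0.572%. Repeats with no spacing were in 0.639%, 1.00% and 1.155%, with a spacing of 3 bases in 0.821%, 0.75% and 0.468%, and with a spacing of 5 bases in 0.365%, 0% and 0.512%. The single hexamer AGGTCA was in 36.5% of gained, 35.2% of lost and 28.1% of all sites. The HNF4 motif CAAAGTCCA was in 1.46%, 2.5% and 1.99%, and the FOXA motif TGTTTAC in 5.57%, 5.5% and 5.90%.

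NCOR itself was measured in Gps2 WT livers, and the peaks of that table were laid over the PPARα sites. An NCOR peak covered 76.1% of sites gained with TMM, 83.5% of lost sites and 71.7% of all sites, but 40.8% of the 130 sites gained with total tags. Those 130 sites had few PPARα tags in WT by their choice, so their share is not comparable with that of all sites. The median over covered sites was 13.5 NCOR tags per 10000000 at gained, 11.4 at lost and 11.4 at all sites. Around the Ncor1 gene, within 10 Mb on either side, 10 of 1002 PPARα sites were gained and 3 were lost with TMM.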
